A study of Mus musculus with 6 samples.

Results

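The 10 genes followed here belong to the matrix metalloproteinase system and were read in mouse kidney and mouse mammary tumor, cell type by cell type. They comprised 7 metalloproteinases (Mmp2, Mmp3, Mmp9, Mmp11, Mmp12, Mmp13 and Mmp14) and 3 tissue inhibitors of metalloproteinases (Timp1, Timp2 and Timp3). They were found by gene symbol among the 31053 genes of the count matrices, and each symbol matched 1 gene. Kidney came from a male C57BL/6 mouse aged 12 weeks, and mammary tumor from a female MMTV-PyMT mouse aged 10 weeks, in which the polyoma middle T oncogene is driven by the mouse mammary tumor virus promoter. For each tissue there were 3 droplet single-cell libraries. The first was a control digested for 60 min by hand. The others were the fractions that a microfluidic digestion and dissociation platform released at a 15 min and at a 60 min interval. These fractions were successive, so the 60 min fraction came from tissue left after the 15 min fraction was eluted. The control was not split in this way. All 6 used 0.25% type I collagenase, DNase, red cell lysis and a sort for cells that exclude the dye SytoxBlue. Each tissue came from a single mouse, of which all 3 preparations were made, and each condition had 1 library.

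Metalloproteinases are zinc-dependent endopeptidases that cut collagens, elastin, laminins and other proteins of the extracellular matrix, mostly after release as inactive proenzymes. TIMPs bind the active site and block it. The system is known for matrix turnover in tissue repair and for stromal remodelling around mammary tumors, where much of the enzyme is made by fibroblasts, macrophages and granulocytes and not by the tumor epithelium. The collagenase of the digestion was added as a protein and is not among the genes counted.

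The genes lay on 7 chromosomes of the mm10 (GRCm38) build. Mmp2 is at chr8:92827291-92853420, Mmp9 at chr2:164940780-164955850, Mmp14 at chr14:54431612-54445364, Mmp11 at chr10:75923222-75936496, Timp3 at chr10:86300372-86349506, Timp2 at chr11:118301069-118355740 and Timp1 at chrX:20870166-20874735. Mmp3 (chr9:7445822-7455975), Mmp12 (chr9:7344381-7369499) and Mmp13 (chr9:7272514-7283331) are neighbours, within 183462 bases. Exons of Mmp11 overlap Chchd10, those of Mmp12 overlap Mmp1b and those of Timp3 overlap Syn3, in each case on the opposite strand, and whether the counting used strand is not given in the sources used here.

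Mmp3, Mmp12 and Mmp13 shared a promoter feature as well as a location, which is why their promoters are shown. RefSeq promoter entries (GRCm38.p6) were matched for 8 members, and Mmp2 and Mmp9 had no entry. The AP-1 motif TGANTCA, the palindromic binding sequence of Fos and Jun dimers, was searched in the 250 bases before each start and was found in these 3 genes. It was present in 6.75% of all 32851 promoters, and in at least 1 promoter of 7.82% of 27025 genes. In the windows that follow, of 30 bases each on the plus strand, the motif is in capitals. The motif ends 40 bases before the start of Mmp3 (chr9:7445765-7445794), 38 bases before the second start of Mmp12 (chr9:7347319-7347348) and 29 bases before that of Mmp13 (chr9:7272468-7272497). A match of letters is a description and shows no binding.
Mmp3: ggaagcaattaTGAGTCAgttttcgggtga
Mmp12: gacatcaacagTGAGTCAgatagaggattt
Mmp13: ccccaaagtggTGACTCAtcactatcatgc

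Within the limits that the methods set for detected genes and for mitochondrial UMIs of a cell, 5886 to 9936 cells remained in the kidney libraries and 5736 to 6024 in the tumor libraries, with medians of 4583 to 6612 and 8210 to 9476 unique molecular identifiers (UMIs) per cell. The kidney 15 min library stood apart, with a median mitochondrial share of 20.4% against 7.38% and 8.59% in the other kidney libraries. Libraries of a tissue shared 16 to 211 cell barcodes, at most 1.75% of a library. Cells were assigned to types by marker genes that held no member of the group, and are called here by the gate they passed. Kidney cells were mostly proximal tubule (52.5%, 85.9% and 29.9% of the control, 15 min and 60 min libraries) and tumor cells mostly luminal epithelial (59.4%, 67.6% and 40.7%), which matched the tissue labels. Levels are given as CPM, the UMIs of a gene for every 1000000 UMIs of all genes in the same cells. Values in brackets are 95% intervals that cover counting error only, and cells of 1 library are not replicates of its condition. A difference between libraries was marked when the ratio was at least 2-fold and both libraries together held at least 20 UMIs of the gene. With 1 library per condition there is no test of any difference, and the share of all genes past the same mark is given as background. In a level per library, fewer cells of a type and less RNA per cell cannot be told apart.

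In the kidney 15 min library most members were low. Of 7 members with enough UMIs, 6 were at least 2-fold below the control (Mmp9, Mmp11, Mmp12, Mmp13, Mmp14 and Timp2), where 28.5% of 14632 genes were, and 0 were at least 2-fold above it, where 2.23% of genes were. Mmp13, an interstitial collagenase, was at 79.7 CPM in the control, 3.50 CPM at 15 min and 99.1 CPM at 60 min. The 15 min library was thus apart from the other 2, and lay below the control by a factor of 22.8 (19.8 to 26.3). Mmp12, the macrophage elastase, stood at 69.1, 5.68 and 87.3 CPM in the same order, and at 15 min was lower than in the control by a factor of 12.2 (10.9 to 13.7). Timp2, the inhibitor that also helps to activate Mmp2, stood at 47.1, 4.09 and 53.5 CPM, the same order of libraries. Mmp14, the membrane-type enzyme that activates pro-Mmp2, stood at 3.21, 0.309 and 3.38 CPM. Mmp9, a gelatinase of granulocytes, was at 3.09, 1.01 and 3.71 CPM and Mmp11, or stromelysin-3, at 5.41, 1.43 and 17.1 CPM. Mmp2, the other gelatinase, had 14, 2 and 21 UMIs in all, Mmp3 (stromelysin-1) had 8, 0 and 15, and Timp1 had 13, 1 and 41, so these 3 had too few for a ratio at 15 min. The 0 UMIs of Mmp3 at 15 min allow a level of up to 0.0488 CPM, taken as that of 3 UMIs. Timp3, the inhibitor that binds to the matrix, went the other way at 435, 628 and 661 CPM, with a ratio of 1.44 (1.42 to 1.47) at 15 min.

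The kidney 60 min library was close to the control for most members. Mmp11 was higher by a ratio of 3.15 (2.69 to 3.72) and Timp1 by 2.03 (1.06 to 4.12), so 2 of 10 were past the mark upward, where 10.5% of 15515 genes were, and 0 downward, where 1.18% were. Of the 41 Timp1 UMIs at 60 min, 10 lay in 1 cell that no gate named. With cells above the gene limit included the ratio of Timp1 was 1.87, short of the mark, and that of Mmp3 was 2.96, past it. The other 8 members had ratios between 0.964 (Mmp2) and 1.52 (Timp3), beside a median of 1.18 over all genes.

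In tumor the 60 min library held more of the stromal enzymes. Mmp3 stood at 6.26 CPM in the control, 9.83 CPM at 15 min and 83.9 CPM at 60 min, which put the 60 min library above the control by a ratio of 13.4 (12.0 to 15.1). Mmp2 stood at 12.3, 15.2 and 85.9 CPM, a ratio of 6.97 (6.41 to 7.59) at 60 min. Mmp11 stood at 1.52, 3.34 and 13.2 CPM, a ratio of 8.66 (6.85 to 11.1). For all 3 enzymes the control was lowest and the 60 min interval highest. Timp1, at 16.9, 15.2 and 65.2 CPM, had a ratio of 3.85 (3.58 to 4.16) at 60 min, and Timp3, at 46.9, 65.5 and 95.8 CPM, of 2.04 (1.95 to 2.15). These 5 of 10 members were past the mark upward, where 9.09% of 15719 genes were. Downward there was 1, Mmp9, at 4.62, 2.02 and 1.34 CPM, where 2.72% of genes were. Members short of the mark at 60 min were Mmp12 (66.4, 28.8 and 77.3 CPM), Mmp13 (17.1, 3.56 and 26.9 CPM), Mmp14 (57.1, 53.4 and 95.7 CPM) and Timp2 (228, 273 and 304 CPM). With cells above the gene limit included Mmp13 had a ratio of 4.25 at 60 min in place of 1.58, and Mmp14 of 2.30 in place of 1.68.

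At 15 min the tumor showed a smaller and mixed pattern. Mmp11 was above the control by a ratio of 2.20 (1.67 to 2.90), the 1 member of 10 to be so where 3.57% of 15588 genes were. Mmp13 was below it by a factor of 4.80 (4.11 to 5.64), Mmp12 by 2.30 (2.17 to 2.45) and Mmp9 by 2.28 (1.81 to 2.89), so 3 of 10 were lower where 3.80% of genes were. Their UMIs in the 15 min library lay mostly in myeloid gates, 81.1% in granulocytes for Mmp9, and 97.2% and 93.8% in macrophages for Mmp12 and Mmp13. With cells above the gene limit included the ratio of Mmp11 was 1.25 and that of Mmp9 was 0.553, both short of the mark.

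**Figure D1:**
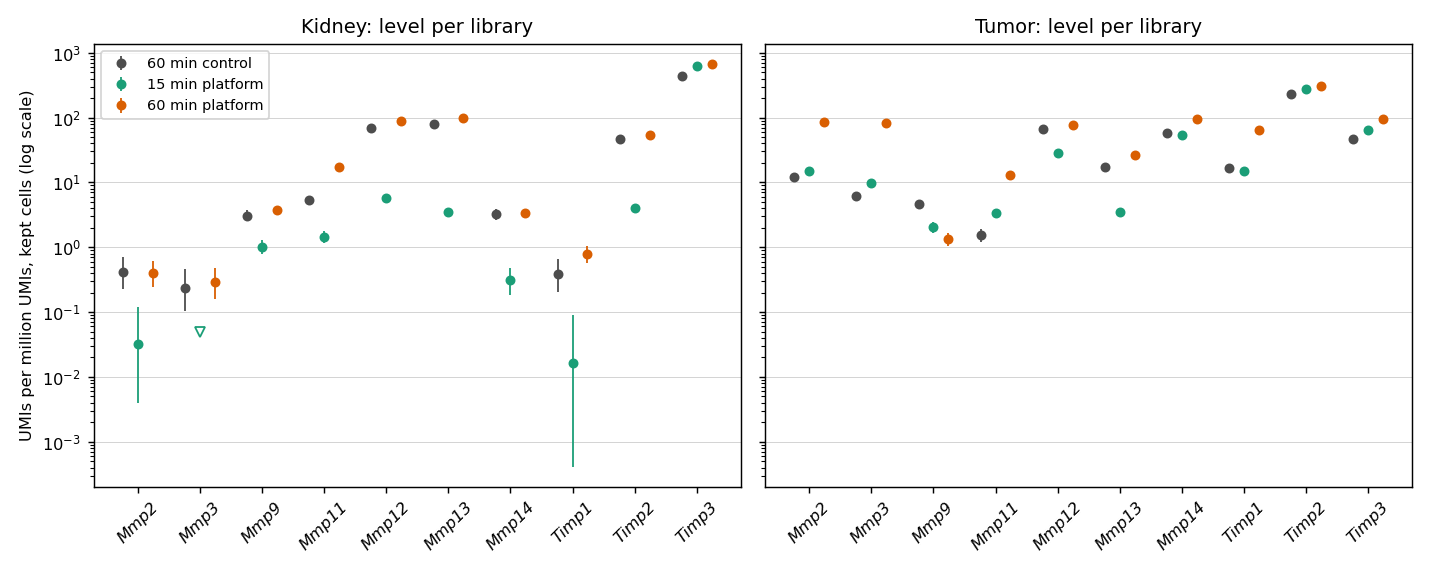
Level of the 10 members in each library, in CPM on a log scale (left, kidney; right, tumor; grey, 60 min control; green, 15 min platform; orange, 60 min platform), with 95% counting intervals; the open triangle marks the limit set by 0 UMIs of Mmp3. Green points of kidney lie far below the others for Mmp12, Mmp13, Mmp14 and Timp2 (3.50 CPM against 79.7 and 99.1 for Mmp13), and orange points of tumor lie above for Mmp2, Mmp3, Mmp11 and Timp1.

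Each enzyme had a leading cell type, the type of at least 20 cells with the highest CPM over the 3 libraries of a tissue together. In tumor the fibroblast gate led for 7 members (Mmp2, Mmp3, Mmp11, Mmp13, Mmp14, Timp1 and Timp2), the granulocyte gate for Mmp9, the macrophage gate for Mmp12 and the basal epithelial gate for Timp3. Since 299 of the tumor fibroblasts came from the 60 min library, the lead over all cells rests mostly on it. Within single libraries macrophages led for Mmp13 in the control (74.4 CPM against 32.3 in fibroblasts) and at 15 min (20.5 against 6.84), and pericytes led for Mmp11 at 15 min (188 against 121). In kidney the granulocyte gate again led for Mmp9 and the macrophage gate for Mmp12. There the macrophage gate also led for Mmp13 and the endothelial gate for Mmp11 and Timp3. Kidney fibroblasts led for Mmp2, Mmp3, Mmp14, Timp1 and Timp2, but from 12, 0 and 18 cells. Fibroblast-gated cells, by the same order of libraries, numbered 40, 70 and 299 in tumor.

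**Figure D2:**
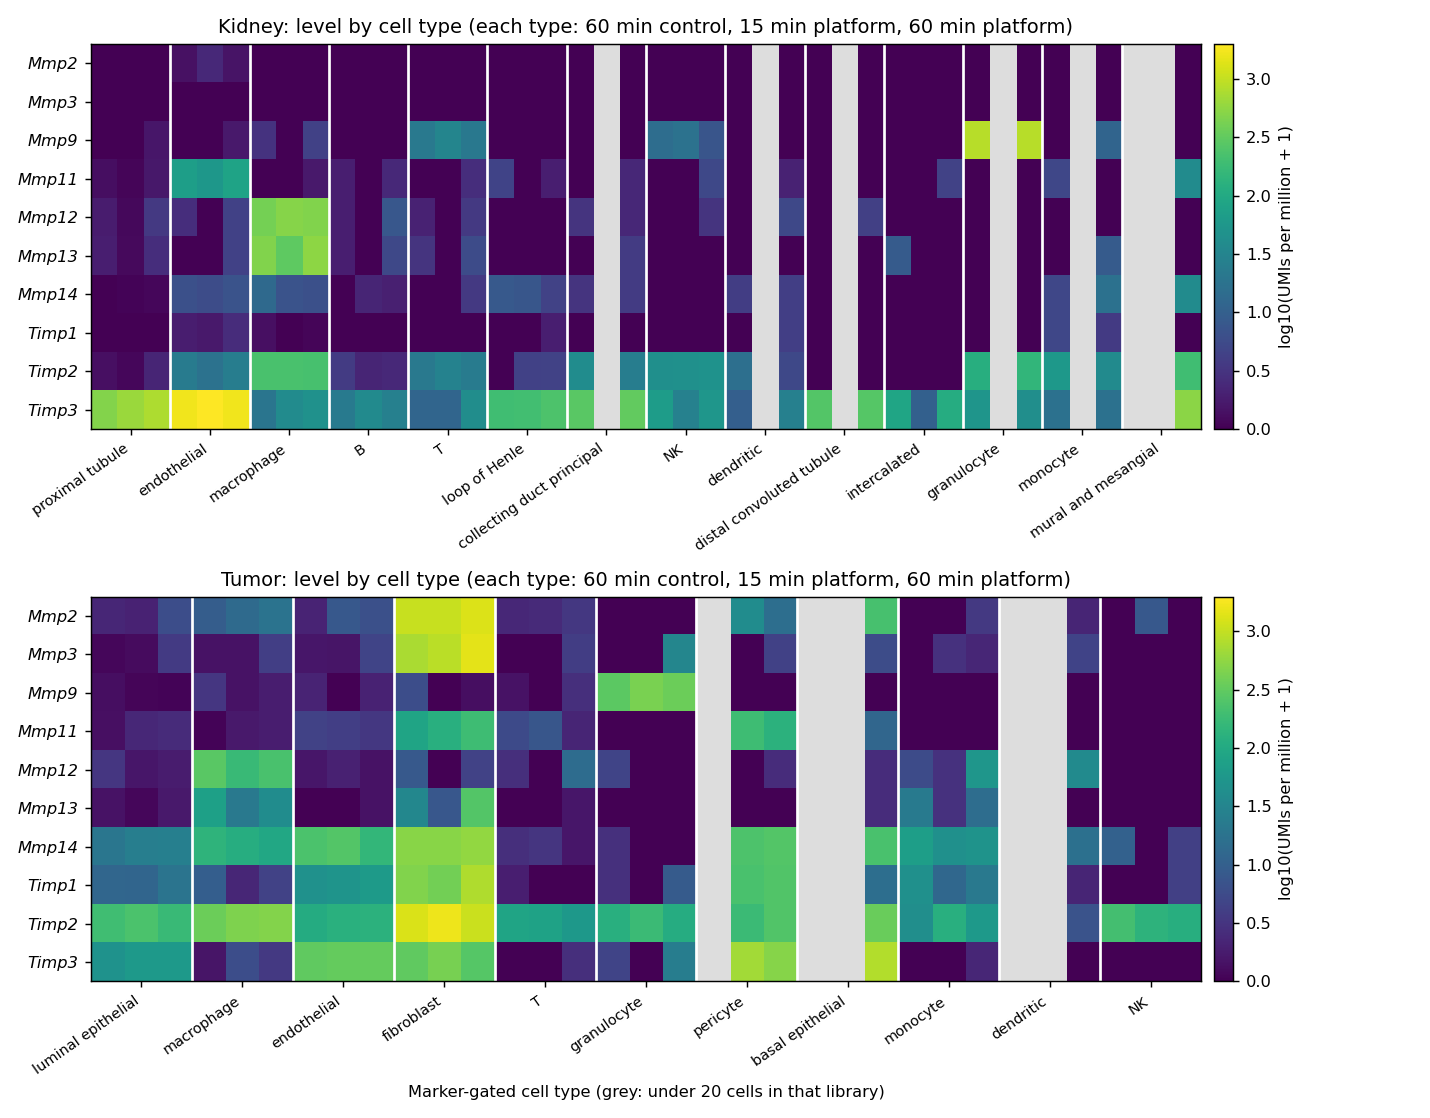
Level of each member (rows) in each marker-gated cell type of kidney (top) and tumor (bottom), as log10 of CPM plus 1; each type has 3 columns, for the 60 min control, the 15 min platform and the 60 min platform, and grey marks fewer than 20 cells. Mmp12 and Mmp13 are bright in kidney macrophages in all 3 libraries, including 305 CPM of Mmp13 at 15 min, and Mmp2 and Mmp3 are bright in tumor fibroblasts.

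Mmp12 and Mmp13 were the macrophage enzymes of the kidney. Within the gene limits, macrophage-gated cells held 93.7% of all Mmp12 UMIs and 95.2% of all Mmp13 UMIs of the tissue, with 10.3% of all UMIs. They numbered 809, 124 and 1467 in the control, 15 min and 60 min libraries, or 13.7%, 1.48% and 14.8% of cells. Within the gate Mmp12 stood at 408 (391 to 425), 501 (448 to 557) and 467 (453 to 481) CPM. The macrophages of the 15 min library were thus not low in Mmp12, although the library was. Mmp13 stood at 473 (455 to 492), 305 (264 to 349.6) and 542 (527 to 558) CPM, lowest at 15 min by a ratio of 0.643 (0.555 to 0.743) to the control. After each cell was thinned to 1000 UMIs, 21.9%, 24.2% and 21.3% of macrophages had an Mmp12 UMI (45.9%, 49.2% and 40.2% unthinned) and 25.5%, 22.5% and 28.9% had an Mmp13 UMI. The same shares in B cells, which should lack both genes, were 0%, 0% and 0.919% for Mmp12 and 0%, 0% and 0.368% for Mmp13, with median depths of 3550 to 3603 UMIs against 5332 to 6858 in macrophages. The 0 of 281 B cells in the control allow a share of up to 1.07%, and the 0 of 219 at 15 min of up to 1.37%.

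The macrophages of the kidney did not share these enzymes evenly. The top 10% of macrophages by Mmp12 UMIs held 56.7%, 57.5% and 66.3% of the gene's UMIs, and the richest cell had 58 UMIs. At 2000 UMIs per cell, Mmp13 was seen in 45.6% of the 712 macrophages with Mmp12 and in 35.9% of those without it, over the 3 libraries together. In the 15 min library alone the order was the opposite, 34.1% against 36.8%, from 41 cells with Mmp12. Timp2, also led by macrophages in number of UMIs (73.0%), stood at 227, 226 and 220 CPM in them, with overlapping intervals (214 to 239.8, 191 to 265 and 210.4 to 229.9). Mmp14 in the same cells stood at 12.3 (9.59 to 15.7), 6.03 (1.64 to 15.4) and 5.44 (4.02 to 7.19) CPM, higher in the control than at 60 min.

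Mmp11 was the endothelial enzyme of the kidney, and Timp3 the endothelial and tubular inhibitor. Within the gene limits, endothelial-gated cells held 92.0% of all Mmp11 UMIs. They numbered 566, 376 and 2472, or 9.62%, 4.48% and 24.9% of cells. Their Mmp11 level was 70.8 (60.5 to 82.4), 54.2 (42.9 to 67.5) and 82.2 (76.7 to 88.0) CPM, so the 60 min ratio within the gate was 1.16 (0.982 to 1.38). Timp3 stood at 1695, 1970 and 1681 CPM in endothelial cells, highest at 15 min. Within the same limits, proximal tubule cells held most of the tissue's Timp3 UMIs, 68.1%. They had 492 (482 to 502), 627 (621 to 634) and 775 (763 to 787) CPM, so the tubule level was higher in both platform libraries. With mitochondrial UMIs left out of the total, the same order held, at 574, 810.4 and 938 CPM. After thinning, 34.9%, 42.1% and 44.0% of proximal tubule cells had a Timp3 UMI, against 1.07%, 2.74% and 2.57% of B cells.

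Endothelial cells of the kidney were not uniform for these genes. Cells with a UMI of both Igf1 and Plvap, 145, 37 and 685 in number, had Mmp11 at 175, 160.3 and 175 CPM, against 35.6, 43.2 and 46.6 CPM in the other endothelial cells. Timp2 was also higher in them, at 56.6, 51.0 and 45.5 CPM against 11.3, 12.9 and 16.0 CPM. Timp3 was lower in them, at 1088, 1457 and 1143 CPM against 1901, 2023 and 1886 CPM. Median depths were alike, 3640 to 3995 UMIs against 3769 to 4199.

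Mmp9 had its highest level in granulocytes in both tissues. Kidney granulocyte-gated cells, 36, 9 and 41 in number, had 887, 1585 and 886 CPM of Mmp9, and held 65.4%, 53.2% and 43.8% of the library's Mmp9 UMIs. Tumor granulocyte-gated cells, 229, 94 and 57 in number, had 291 (248 to 341), 431 (347 to 530.4) and 366 (268 to 488) CPM, and held 66.7%, 81.1% and 59.0% of the library's Mmp9 UMIs. The number of these cells, 3.99%, 1.62% and 0.946% of tumor cells, was highest in the control, as the library level of Mmp9 was, while the level within the gate was lowest in the control, with an interval that overlapped that of 60 min. Kidney T cells had a low level of Mmp9, 20.5, 31.2 and 19.7 CPM, and 0 of 1062 kidney B cells had a UMI.

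Kidney fibroblasts were few, yet held all 23 Mmp3 UMIs of kidney cells within the gene limits. Cells above the upper limit held another 23 at 60 min, and their types were not counted for this gene. In the control 8 Mmp3 UMIs lay in 1 cell, and at 60 min 15 lay in 7 cells. They held 11 and 12 of the Mmp2 UMIs (148 and 114 CPM), 7 and 6 of Timp1, 7 and 12 of Mmp14, 88 and 213 of Timp2 and 63 and 154 of Timp3. No cell of the 15 min library passed this gate. These counts are too small to compare libraries.

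Tumor fibroblasts carried the stromal enzymes. Their share of cells was 0.697%, 1.21% and 4.96% in the control, 15 min and 60 min libraries. Mmp2, the gelatinase, stood at 1046 (949 to 1151), 1050 (969 to 1137) and 1349 (1309 to 1390) CPM in them. Mmp3 stood at 761 (678 to 851), 895 (819.5 to 975) and 1461 (1419 to 1503) CPM, and the 60 min ratio within the gate was 1.92 (1.71 to 2.16). Both were highest at 60 min. The Mmp3 intervals do not cover how few cells held the gene. In the control 147 of its 306 UMIs lay in 1 cell, and at 15 min 164 of 523 did. Mmp11, at 84.5 (58.5 to 118), 121 (94.8 to 153) and 188 (173 to 204) CPM, had a ratio of 2.23 (1.58 to 3.24) at 60 min. Mmp14, at 522 (454 to 598), 513 (457 to 575) and 583 (557 to 609.7) CPM, had overlapping intervals. Timp1 stood at 472 (407 to 544), 392 (343 to 446) and 804 (774 to 836) CPM and was highest at 60 min. Timp2 was lowest at 60 min, with 1305 (1196 to 1421), 1640 (1538 to 1748) and 1096 (1060 to 1132) CPM. Timp3 stood at 313 (261 to 373), 417 (367 to 473) and 271 (253 to 289) CPM.

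Mmp3 and Mmp13 came from a minority of tumor fibroblasts, and Mmp2 from nearly all. Over the 3 libraries, 96.3% of fibroblast-gated cells had an Mmp2 UMI and 44.7% had an Mmp3 UMI, with a median of 10498 UMIs per cell. Thinned to 1000 UMIs the shares were 64.8% (59.9 to 69.5) for Mmp2 and 29.6% (25.2 to 34.4) for Mmp3, against 0.258% and 0.0824% of luminal cells. At 60 min the top 30 of 299 fibroblasts by Mmp3 UMIs held 72.4% of the gene's UMIs, up to 294 in 1 cell. Mmp13 was rarer still. At 60 min 46 fibroblasts had an Mmp13 UMI, and 30 of them held 97.1% of 824 UMIs, up to 104 in 1 cell. The Mmp13 level of the gate was 32.3 (17.2 to 55.3), 6.84 (1.86 to 17.5) and 257 (239 to 275) CPM, but the control value rests on 13 UMIs in 2 cells, 12 of them in 1. At 2000 UMIs per cell, Mmp13 was seen at 60 min in 18 of 111 fibroblasts with Mmp3 (16.2%) and in 4.82% of those without. In the control it was seen in 0 of 11 with Mmp3 and 3.57% of those without. At 15 min it was seen in 0 of 15 and 4.17%. Over the 3 libraries together the shares were 13.1% and 4.55%. Mmp14 and Mmp2, an enzyme and its substrate, showed no such pairing over the 3 libraries, with Mmp14 seen in 59.8% of cells with Mmp2 and in 58.9% of cells without.

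The upper limit of 4000 genes per cell touched tumor fibroblasts most directly, since 87, 82 and 389 fibroblast-gated cells lay above it and 40, 70 and 299 below it or at it. With those cells included, the fibroblast level of Mmp3 was 456, 697 and 1455 CPM, that of Mmp2 973, 887 and 1204 CPM, and that of Mmp11 66.9, 61.3 and 156 CPM. The 60 min library stayed highest for the 3 genes. Mmp13 then stood at 78.8, 79.9 and 364 CPM, so the low value at 15 min did not hold without the limit.

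**Figure D3:**
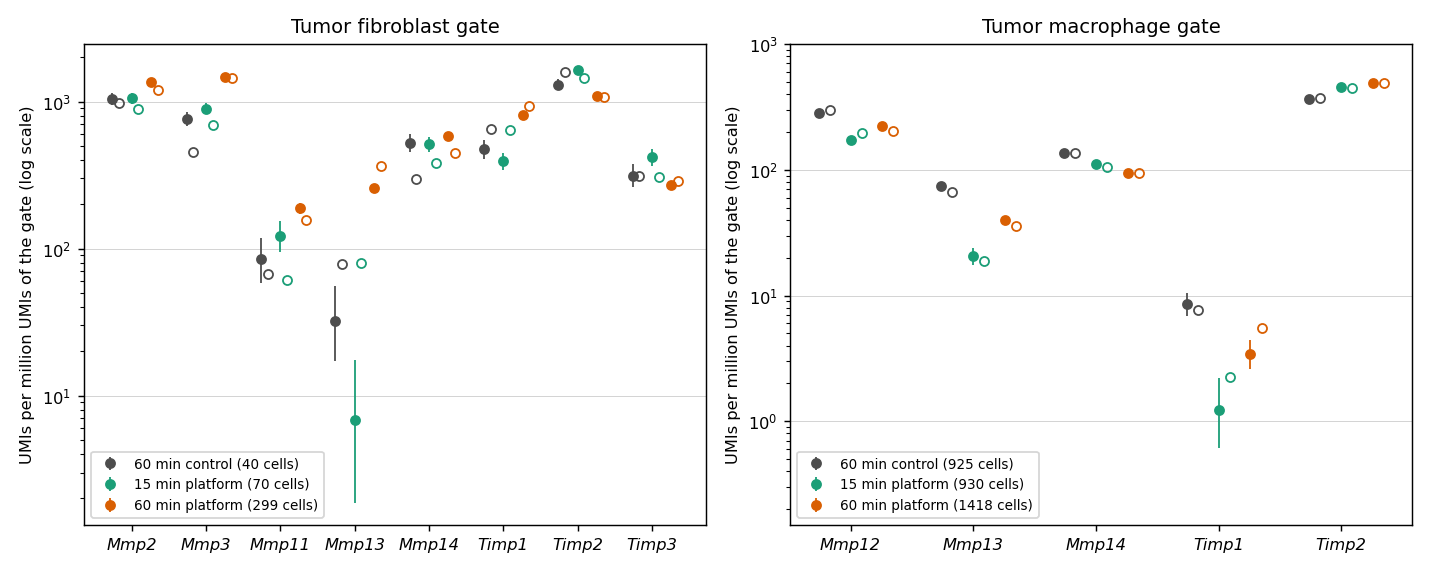
Level of members within the tumor fibroblast gate (left) and macrophage gate (right), in CPM of the gate on a log scale, for the 60 min control (grey), 15 min platform (green) and 60 min platform (orange). Filled points with 95% counting intervals are cells within the gene limits and open points are all cells with at least 200 genes; Mmp3, Mmp11, Mmp13 and Timp1 are highest at 60 min in fibroblasts (1461 CPM of Mmp3 against 761 in the control), and Mmp13 is lowest at 15 min in macrophages (20.5 CPM).

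Tumor macrophages carried Mmp12, and in the control and 15 min libraries most of the Mmp13 as well. They numbered 925, 930 and 1418, or 16.1%, 16.0% and 23.5% of cells. Mmp12 within the gate stood at 281 (271 to 291), 172 (164 to 181) and 222 (214 to 229) CPM. The level was thus highest in the control and lowest at 15 min, at nearly equal cell numbers. Mmp13 showed the same order, at 74.4 (69.3 to 79.7), 20.5 (17.6 to 23.7) and 39.7 (36.7 to 42.8) CPM, with a 15 min ratio of 0.276 (0.233 to 0.324). The macrophages held 93.2% and 93.8% of Mmp13 UMIs in the control and 15 min libraries, and 42.8% at 60 min, where fibroblasts held 52.8%. Mmp14 was also highest in control macrophages, at 137, 112 and 94.8 CPM, and Timp1 was at 8.58, 1.23 and 3.45 CPM. Timp2 had the opposite order, 364 (353 to 376), 453 (439 to 467) and 487 (477 to 498) CPM. Thinned to 1000 UMIs, 13.9% (11.7 to 16.3), 8.61% (6.87 to 10.6) and 10.3% (8.76 to 12.0) of macrophages had an Mmp12 UMI (34.2%, 19.7% and 23.8% unthinned), against 0.389%, 0% and 0% of T cells, whose median depth was 4822 to 8157 UMIs against 9328 to 11987 in macrophages. The 0 of 192 T cells at 15 min allow up to 1.56%, and the 0 of 281 at 60 min up to 1.07%.

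The tumor macrophages differed by program in their levels of the members. Macrophages with a UMI of both Il1a and Cd207, 204, 53 and 143 in number, had Mmp12 at 465, 487 and 691 CPM, against 222, 147 and 163 CPM in the rest. Mmp13 was also higher in them, at 116, 40.0 and 85.0 CPM against 61.3, 19.0 and 34.0 CPM. Timp2 was lower in them, at 257, 262 and 302 CPM against 398, 468 and 511 CPM. Within both classes Mmp13 was lowest at 15 min, and the share of macrophages in the class with Il1a and Cd207 was also smallest there. The gate's order of Mmp12 did not hold in the class with Il1a and Cd207. There the control was lowest, with an interval (439 to 492) that overlapped that of 15 min (435 to 543). Macrophages of the 15 min library were the shallowest, at a median of 9328 UMIs against 11987 and 11980, and the part of depth in these shares was not tested. Macrophages with a UMI of both Folr2 and Pf4, which mark resident-type macrophages, numbered 67, 81 and 192 and were the reverse. Their Timp2 level was 822, 1031 and 804 CPM against 323, 388 and 436 CPM in the rest, and their Mmp12 level was 78.4, 69.2 and 22.5 CPM against 299, 184 and 254 CPM. Cells with both markers were deeper, with medians of 11896 to 12860 UMIs in these classes against 9027 to 11912. The largest class, with a UMI of both Cx3cr1 and Tmem119, numbered 553, 751 and 1045 cells. Its Mmp12 level was also lower, at 257, 159.8 and 189 CPM against 326, 241 and 339 CPM in the rest. Its Timp2 level was not higher, at 359.6, 399 and 479 CPM against 374, 756 and 517 CPM. Its median depths were 13066, 9719 and 12522 UMIs against 10323, 6672 and 10424. Overlap between the classes was not counted.

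Endothelial cells and pericytes of the tumor carried Mmp14 and the inhibitors. Endothelial-gated cells, 315, 254 and 791 in number, had Mmp14 at 229, 257 and 152 CPM, lowest at 60 min. Their Timp3 level was 309 (283 to 336), 331 (306 to 358) and 328 (314 to 342) CPM, with overlapping intervals, and their Timp1 level was 45.7 to 61.9 CPM, highest at 60 min. Mmp11, led by endothelium in kidney, was seen in 9 of 1267 tumor endothelial cells at 2000 UMIs per cell, against 403 of 3074 in kidney. The tumor pericyte gate held 19, 31 and 85 cells. Pericyte levels at 15 and 60 min were 188 and 130 CPM of Mmp11 and 699 and 499 CPM of Timp3, while the control's 19 cells held 99 Timp3 UMIs.

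Epithelial cells of the tumor carried Timp2 and Timp3. Luminal cells, 3410, 3924 and 2453 in number, had Timp2 at 195, 229 and 170.3 CPM and Timp3 at 46.5, 58.0 and 58.2 CPM. Luminal cells with a UMI of both Lalba and Csn3, milk protein genes, were low in both. Their Timp2 level was 122, 145 and 120.1 CPM against 379, 432 and 239 CPM in the other luminal cells. Their Timp3 level was 26.6, 32.7 and 30.6 CPM against 97.1, 119.6 and 95.9 CPM. The trait was not particular to the milk protein class. Luminal cells with a UMI of both Aqp5 and Tspan8 had Timp2 at 94.8, 102 and 109 CPM against 297, 377 and 214 CPM. Timp3 in them was at 24.7, 23.2 and 45.8 CPM against 69.0, 98.9 and 67.2 CPM. How far these classes share cells was not counted. Cells with Lalba and Csn3 had median depths of 9061, 10475 and 10100 UMIs against 7321, 8569 and 8359. Those with Aqp5 and Tspan8 had 11049, 11146 and 11046 UMIs against 6629, 8566 and 8124. The part of depth in these differences was not tested. Basal-gated cells numbered 15, 13 and 80, and held 87, 139 and 508 UMIs of Timp3, the last at 828 CPM. Their number depended on the gate. The Leiden cluster named basal held 172, 279 and 497 cells, and 80.8% of its cells passed the luminal gate. The 80 basal cells of the 60 min library also had Mmp2 at 220.1 CPM and Mmp14 at 223 CPM. With the basal class drawn instead as epithelial cells with a UMI of both Krt14 and Krt5, 14, 23 and 79 cells had Timp3 at 568, 736 and 751 CPM.

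**Figure D4:**
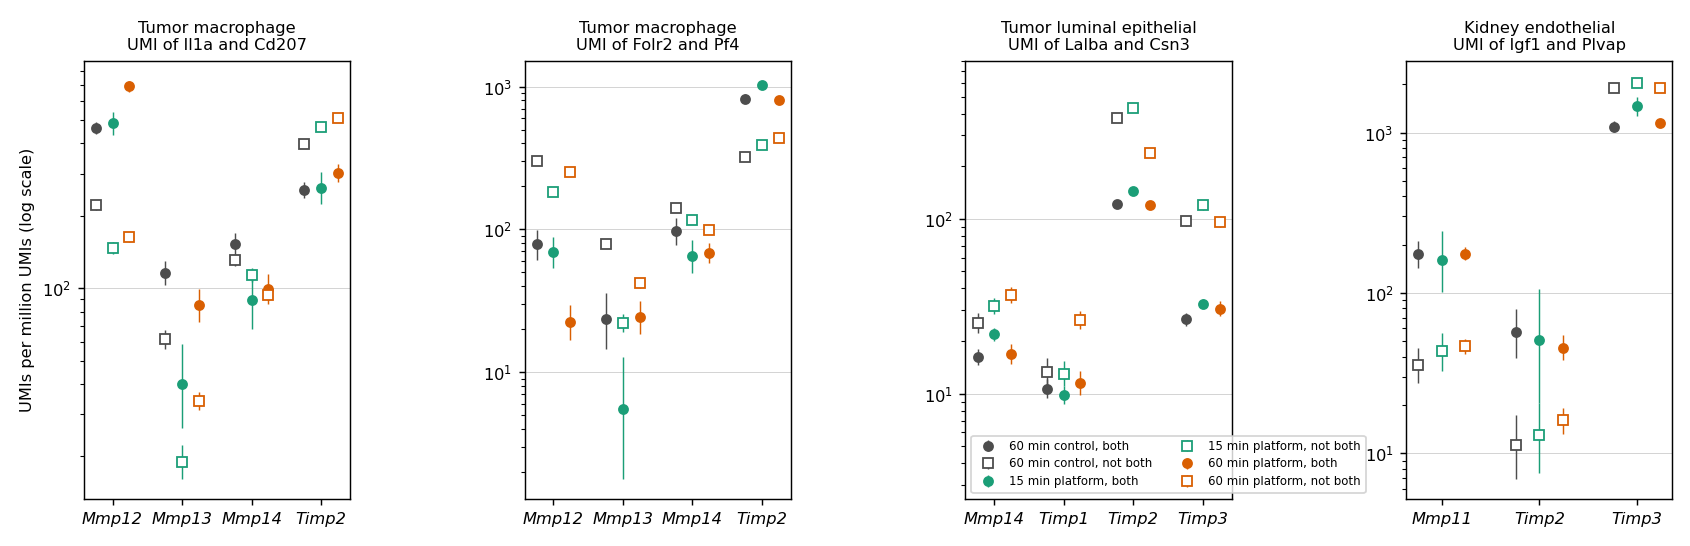
Level of members, in CPM on a log scale, in cells with a UMI of both named genes (filled) and in the other cells of the gate (open), per library (grey, 60 min control; green, 15 min platform; orange, 60 min platform), with 95% counting intervals. Mmp12 is higher in macrophages with Il1a and Cd207 and Timp2 in those with Folr2 and Pf4 (822, 1031 and 804 CPM), Timp2 and Timp3 are lower in luminal cells with Lalba and Csn3, and Mmp11 is higher in kidney endothelial cells with Igf1 and Plvap.

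Library levels were then computed again at the control's makeup, with the level of each type taken from its own library and the share of UMIs of each type from the control (8 types of at least 20 cells in all 3 libraries of a tissue, the rest pooled). In kidney at 15 min the ratio of Mmp12 was 1.20 on this scale in place of 0.0822, that of Timp2 0.930 in place of 0.0867 and that of Mmp13 0.628 in place of 0.0439. Mmp9 passed from 0.326 to 1.68 and Mmp11 from 0.265 to 0.778. Of the 6 low members 1 stayed at least 2-fold low, Mmp14 at 0.458, from 19 UMIs at 15 min. Over the 3 libraries Mmp14 was highest in fibroblasts (106 CPM) and in mural and mesangial cells (38.0 CPM). These types numbered 12 and 18 cells in the control and 0 and 2 at 15 min. They lay in the pooled rest, whose makeup was not held fixed. In kidney at 60 min Mmp11 had a ratio of 1.29 in place of 3.15 and Timp1 of 1.19 in place of 2.03. The higher Mmp11 level there stood beside a higher share of endothelial cells, 24.9% against 9.62% in the control, and a link was not tested. Timp1 was highest in kidney fibroblasts, at 72.6 CPM over the 3 libraries.

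In tumor at 60 min Mmp3 had a ratio of 2.37 at the control's makeup in place of 13.4, Mmp11 of 2.51 in place of 8.66, Mmp2 of 1.64 in place of 6.97 and Timp1 of 1.42 in place of 3.85. Mmp3 and Mmp11 were thus the 2 of 5 that stayed past the mark. With Leiden clusters in place of the gates Mmp3 stood at 2.46 and Mmp11 at 1.97, the latter short of it. The Mmp3 ratio rests on a control fibroblast level in which 147 of 306 UMIs lay in 1 cell. Mmp9 had a ratio of 0.925 in place of 0.291. At 15 min Mmp13 was at 0.269 by gates and by clusters. Mmp11 was at 2.35 by gates but at 1.81 by clusters, short of the mark, while Mmp12 was at 0.570 and Mmp9 at 1.11.

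**Figure D5:**
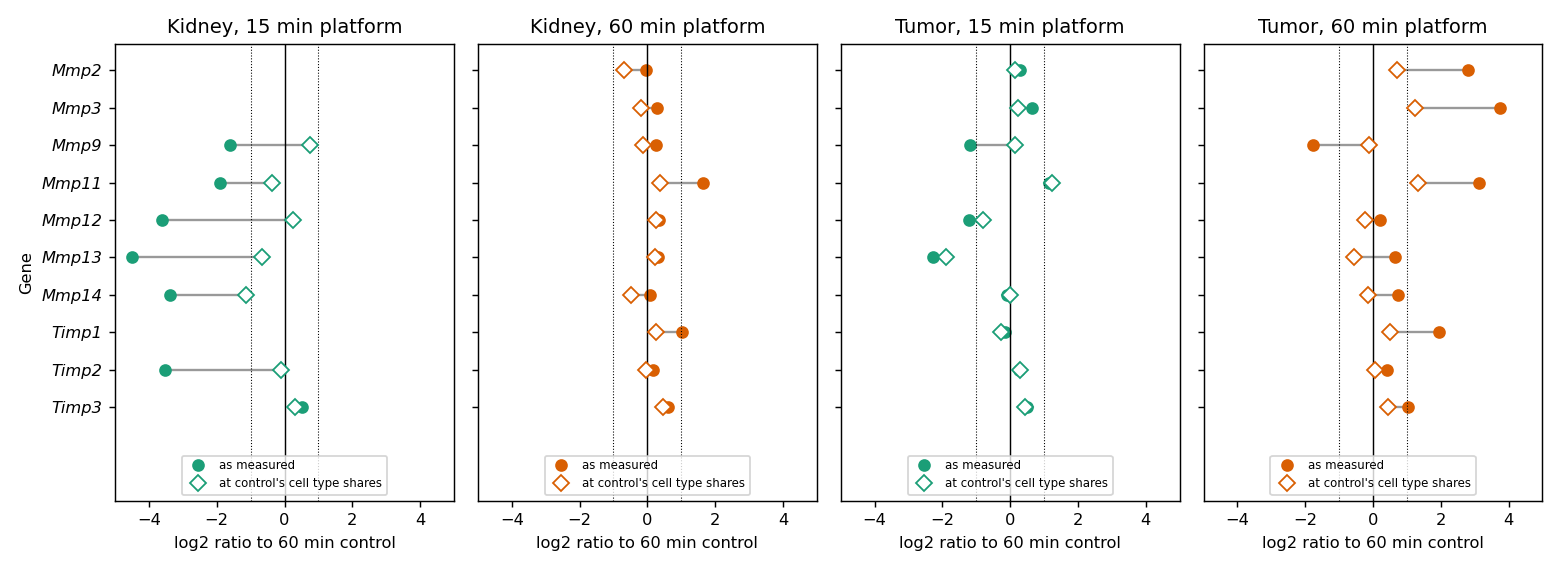
Ratio of each member's level to the 60 min control, on a log2 scale, as measured (filled circles) and at the control's cell type shares (open diamonds), for the 15 min (green) and 60 min (orange) platform libraries of kidney and tumor; dotted lines mark 2-fold. Open diamonds lie nearer to 0 for most members, as for Mmp3 in tumor at 60 min (2.37 in place of 13.4), and Mmp13 stays past the line in tumor at 15 min, as Mmp11 does by gates (2.35) but not by clusters (1.81); kidney at 15 min shows the 7 members with at least 20 UMIs.

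Other genes of the protease system were counted by the same mark. Of 62 listed genes 61 were found. In kidney at 15 min 28 of 46 with enough UMIs were at least 2-fold lower (28.5% of all genes) and 1 was higher (2.23%), Cd63, a membrane partner of Timp1, at 2.15. At 60 min in kidney 17 of 51 were higher (10.5% of all genes) and 0 lower (1.18%). They included the membrane-type enzyme Mmp15 at 3.08 and the plasminogen activator Plat at 2.30. In tumor at 15 min 0 of 53 were higher (3.57% of all genes) and 4 were lower (3.80%): Mmp19 at 0.153, Adam8 at 0.364, and the urokinase Plau at 0.396 with its receptor Plaur at 0.171. At 60 min in tumor 23 of 54 were higher (9.09% of all genes) and 0 lower (2.72%). Among them were the collagen gene Col1a1 at 11.1, the collagen-cutting cathepsin Ctsk at 10.6 and Mmp23 at 9.05. The median ratio of the members was 0.0963, 1.22, 1.07 and 1.86 in the 4 comparisons, that of the other listed genes 0.341, 1.54, 1.17 and 1.78, and that of all genes 0.749, 1.18, 1.16 and 1.00. The comparisons of a tissue share 1 control library.

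Genes were also ranked by likeness to each member across cell types. Likeness was Pearson's r of log2 levels over 15 kidney or 11 tumor types, which share libraries and depth, and is a description. Mmp9 was most like Retnlg in both tissues (r of 0.959 and 1.000). Retnlg is itself a marker of the granulocyte gate, so this likeness was set in part by the gating. The next genes were Mpzl3 in kidney (0.945) and Ngp in tumor (1.000). In kidney Mmp11 was most like Plat (0.997), Mmp12 like H2-M2 (0.994) and Mmp13 like Ms4a14 (0.994). In tumor Mmp3 was most like Mfap4 (0.999), Mmp2 like Ak1 (0.987), Mmp13 like Gpnmb (0.976) and Timp3 like Phlda3 (0.991). Timp2 had no close partner in either tissue, with 0.865 for Svil and 0.879 for Itsn1.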

How the data were processed

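The authors aligned 10x v3 droplet libraries to mm10 with Cell Ranger 3.1.0 and aggregated those of a tissue, a step that evens the depth of reads. The deposited matrices hold UMI counts, as whole numbers for every gene in every cell. Cells were kept with 200 to 3000 genes and at most 50% mitochondrial UMIs in kidney, and 200 to 4000 genes and at most 25% in tumor, the limits of the study's methods.

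Counts were read with Python 3.11.15 and scipy 1.17.1. A cell was gated to the type whose markers scored highest, with at least 3 markers detected and a margin of 0.1 over the next type. Thresholds of the gate were set after the counts were seen. No doublet caller was run. The margin and the upper gene limit remove some doublets, and a margin of 0.2 was tried. Clusters by scanpy 1.11.5 (Leiden, resolution 0.5) were an alternative. CPM intervals were exact Poisson, ratios exact conditional binomial and shares exact Clopper-Pearson, each at 95%. A count of 0 was bounded by 3 counts. No test was possible with 1 library per condition. The interval step was checked on simulated data. All 10 members are named whatever their values. Other protease genes are named when past the 2-fold mark, and of likeness the leading genes. Members and lists were chosen with earlier results of these data known. Coordinates are from GENCODE vM21.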

Additional observations from a re-analysis of the deposited data

Results flagged for a closer look

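Mmp11 differed in direction between the tissues at 15 min. Its ratio to the control was 0.265 in kidney, where endothelial cells hold most of its UMIs. In tumor it was 2.20, where fibroblasts and pericytes have the highest levels over the 3 libraries together. Of the 183 tumor UMIs at 15 min, 71 lay in fibroblasts and 53 in luminal cells, against 34 and 11 of 77 in the control. With cells above the gene limit included the tumor ratio was 1.25. The difference between the tissues was not tested, since each condition had 1 library.

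Mmp12 went different ways between cell types of the tumor at 60 min. The ratio to the control was 7.66 in T cells, from 23 UMIs of which 20 lay in 1 cell. In monocytes it was 11.4, from 41 UMIs against 3. In luminal cells it was 0.345, from 19 UMIs against 72. These differences were not tested and rest on few UMIs.

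Timp3 went different ways between cell types of the kidney at 15 min. The ratio was 2.10 in macrophages, from 25 UMIs against 99, and 0.107 in intercalated cells, from 1 UMI against 22. These differences were not tested either.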

How the results depend on the processing

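Counts of members past the 2-fold mark changed chiefly at the control's cell type shares. There, 1 member in place of 6 was lower in kidney at 15 min, 0 in place of 2 were higher in kidney at 60 min, 1 in place of 3 was lower in tumor at 15 min, 2 in place of 5 were higher in tumor at 60 min and 0 in place of 1 were lower. Of ratios past the mark, those that turned direction there were Mmp9 (1.68) and Mmp12 (1.20) in kidney at 15 min, and Mmp9 (1.11) in tumor at 15 min. Of ratios short of it, Mmp3 (0.881), Mmp9 (0.921), Mmp14 (0.710) and Timp2 (0.974) in kidney at 60 min and Mmp12 (0.857), Mmp13 (0.681) and Mmp14 (0.904) in tumor at 60 min passed from above 1 to below it. With Leiden clusters in place of gates Mmp11 also fell short of the mark, at 1.97 in tumor at 60 min and 1.81 at 15 min, which left 1 higher member (Mmp3) and 0. The measured ratio and the ratio at the control's shares differ only in the shares given to the types and to the pooled rest. The makeup within the pooled rest was not held fixed. With all deposited cells, or without the upper gene limit, 0 members in place of 1 were higher in tumor at 15 min, and with a ratio of 1.5 there were 2. At 60 min in tumor both settings without the limit gave 7 higher members, which added Mmp13 and Mmp14.

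Leading cell types were the same for 10 kidney members in every other setting, but leaving out a library left 5 to 10, because without the control or the 60 min library the fibroblast gate has fewer than 20 cells. In tumor the range was 8 to 10. Without the 60 min library pericytes led for Mmp11 and macrophages for Mmp13, and with Leiden clusters pericytes led for Timp3. Levels in the leading type stayed within their intervals for 42 of 42 values with the stricter gate and 33 without the cell richest in the gene (an alternative chosen after seeing the data). They did so for 30 with Leiden clusters, 24 without mitochondrial UMIs and 17 with all deposited cells of at least 200 genes. No paired analysis was possible because each group had 1 library.

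With 1 library per condition no difference is separated from the spread between digests or pieces of tissue, and each tissue stands for a single mouse. Kidney fibroblast values rest on 30 cells, and members under 20 UMIs have no ratio.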

Other observations

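Cells above the upper gene limit also held the members. In tumor 1182, 1625 and 1292 such cells were in the control, 15 min and 60 min libraries, of which 7.36%, 5.05% and 30.1% passed the fibroblast gate. Their Mmp2 level was 58.4, 38.3 and 305 CPM and their Timp3 level was 44.3, 47.8 and 135 CPM. In kidney Timp3 stood at 746, 1305 and 1034 CPM in such cells, with the control lowest, as below the limit.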
